A study of Homo sapiens with 6 samples.

Results

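Wnt signalling genes were followed in DU145, an established human prostate cancer line, after siRNA against RCC2. The group holds 53 genes chosen by name, among them 12 Wnt ligands and 10 Frizzled receptors, and each matched 1 of the 50868 gene rows in the count tables. The others are co-receptors, secretion and turnover factors, secreted inhibitors, the cytoplasmic relay and the transcription factors that beta-catenin works with. The choice did not use the measured values of these rows, although earlier results of the data were known when it was made. RNA was sequenced from 6 libraries, 3 from cells given a control siRNA (siCtrl, labelled RCC2 wild type) and 3 from cells given an siRNA against RCC2 (siRCC2, labelled RCC2 knockdown). The siRNA sequence and the time from transfection to harvest were not stated in the labels, nor was the culture each library came from. The p-values therefore rest on library-to-library spread alone, and that spread may be technical. Per its title, the series asks what RCC2 does for growth and migration of prostate cancer cells through Hedgehog signalling and stem-like cells, so the Wnt pathway lies outside its stated question.

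In the Wnt pathway, lipid-modified ligands leave the cell with the help of the acyltransferase PORCN and the carrier WLS and bind a Frizzled receptor. Together with the co-receptor LRP5 or LRP6, this draws Dishevelled and Axin to the membrane and stops the complex of Axin, APC and GSK3 from marking beta-catenin for destruction. Beta-catenin then accumulates and activates genes with TCF or LEF factors, and several of those genes, such as AXIN2, RNF43, NKD1, NOTUM and DKK1, encode inhibitors of the pathway itself. Other ligands signal through ROR1, ROR2 or RYK without beta-catenin. The pathway is known for its part in prostate development and in the spread of prostate cancer.

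Total counts ran from 17377191 to 19895431 per library. RCC2, the targeted gene, had 3998, 3598 and 3702 reads in siCtrl and 980, 1117 and 1045 in siRCC2 (replicates in the order 1 to 3, here and below), and its level went from 194 ± 3.84 to 57.2 ± 2.25 CPM (SD, n = 3 libraries per group, as for all CPM values below). CPM (counts per 1000000 reads) relates a count to its library total, with totals scaled between libraries by the TMM method. Fold changes are siRCC2 over siCtrl on the log2 scale with their standard error, and a gene is said to rise or fall where edgeR's quasi-likelihood test, adjusted over all 16536 genes tested, gave p under 0.05. On the second principal component of all genes, siRCC2 replicates 1 to 3 lay at 41.5, -13.3 and -35.2. The siCtrl replicates lay at 5.36, 5.43 and -3.78. Replicates 1 and 3 of siRCC2 were thus the furthest out, on opposite sides. Results that change without siRCC2 replicate 1, the furthest, are marked. Markers expected in the line were the epithelial KRT8, KRT18, KRT7, EPCAM and CDH1, and VIM, which is usually taken as mesenchymal. Together they summed to between 5281 and 5526 CPM in siCtrl and between 3567 and 4283 CPM in siRCC2. These markers did not move together: KRT7, the highest of them in CPM, fell from 3588 ± 116 to 1636 ± 203 CPM and EPCAM from 15.3 ± 1.06 to 11 ± 1.14 CPM, KRT8 rose from 462 ± 4.12 to 729 ± 41.4 CPM, KRT18 from 318 ± 7.46 to 452 ± 40.7 CPM and CDH1 from 83 ± 2.75 to 101 ± 7.89 CPM, and VIM did not pass (adjusted p = 0.673). KLK3, a marker of luminal prostate cells, had at most 1 read in a library. Of the leukocyte markers, CD3E had 0 reads in every library, PTPRC at most 1 and LYZ at most 2. The 5 fibroblast markers summed to between 13.4 and 16.2 CPM in siCtrl and between 10.9 and 14.1 CPM in siRCC2, and the 4 endothelial markers to between 0.943 and 1.46 CPM and between 0.314 and 0.824 CPM. Most of the fibroblast sum is COL1A1, which fell from 12.5 ± 1.06 to 9.22 ± 1.4 CPM, while COL3A1 rose from 0.401 ± 0.215 to 1.02 ± 0.127 CPM, and COL1A2 (adjusted p = 0.0526) and PDGFRB (adjusted p = 0.13) did not pass. The part of these levels in the results below was not tested. In such bulk libraries, fewer cells of a type and less RNA per cell cannot be told apart.

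Wnt genes differed in both directions after RCC2 siRNA. Of the 47 members with enough reads to be tested, 21 changed (44.7%), against 41.8% of all genes tested. The share of members that changed was thus close to the background. There were 9 members that rose, against a background of 20.7%, and 12 that fell, against a background of 21.1%. The median log2 fold change of the 47 was -0.01, next to -0.02 over all genes tested. Groups did not overlap in 27 members, where the background was 55.4%. They are the 21 that changed and WNT4, RYK, ROR2, DKK3, ZNRF3 and TCF7L2. Changes past the threshold and of at least 2-fold were found in 7 members (background 12.1%): NOTUM, WNT10A, FZD4, PORCN and FZD7 fell and AXIN2 and WNT9A rose.

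**Figure D1:**
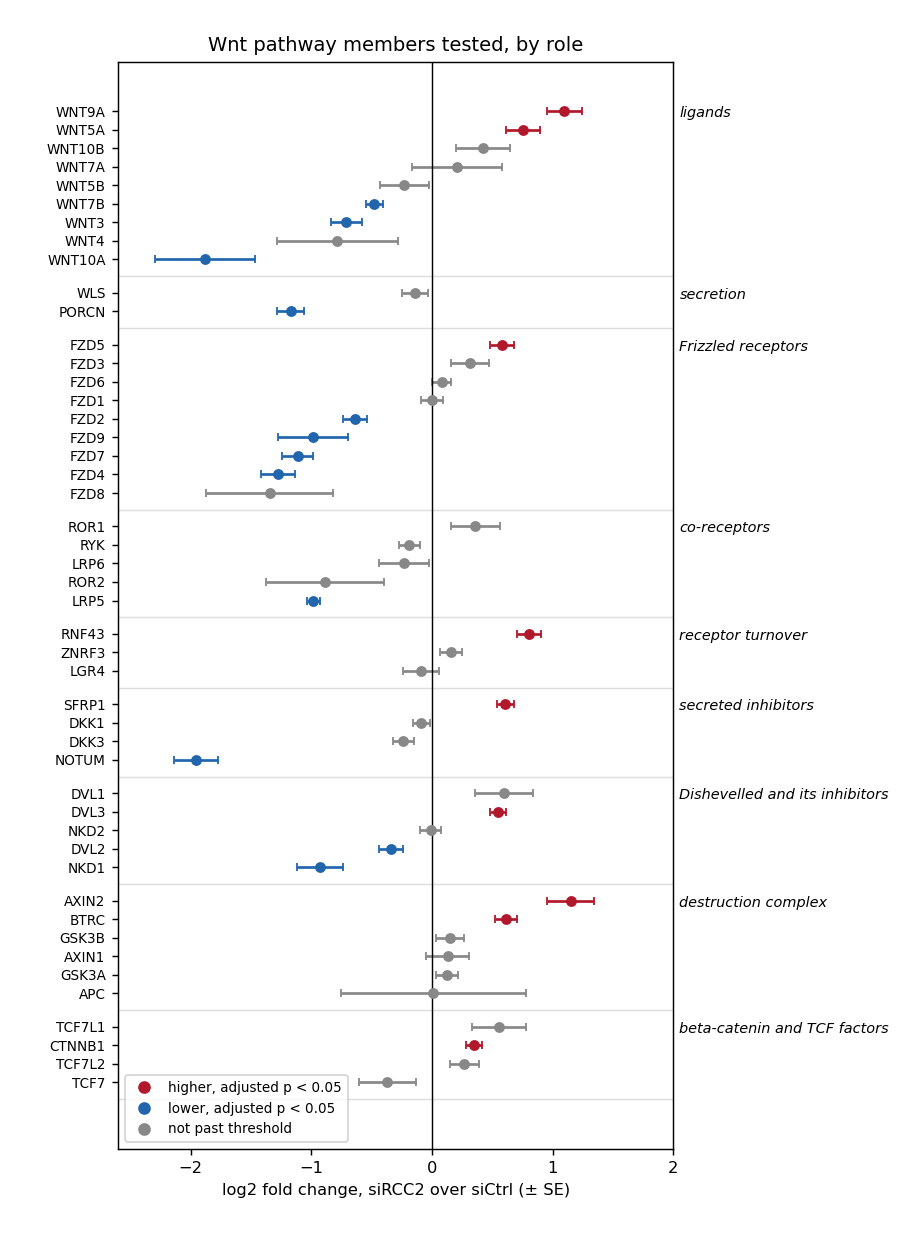
Log2 fold change of siRCC2 over siCtrl (x axis, with standard error) for the 47 members tested, grouped by role (rows); colours mark the 9 members that rose and the 12 that fell at an adjusted p under 0.05. Of the Frizzled receptors FZD4, FZD7, FZD9 and FZD2 lie left of 0 and FZD5 right of 0, while AXIN2, BTRC and CTNNB1 lie right of 0.

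Among the ligands, WNT7B was the most abundant, and its level fell. WNT7B (ENSG00000188064, GRCh38 chromosome 22, 45920362 to 45977129, minus strand) had 1771, 1588 and 1599 reads in siCtrl and 1053, 1148 and 1161 in siRCC2. Every siRCC2 library was below every siCtrl library. Its level went from 85.3 ± 2.76 to 61.2 ± 2.28 CPM (-0.48 ± 0.07 on the log2 scale, adjusted p = 0.00192). WNT3, a ligand of the beta-catenin branch, had 224, 171 and 207 reads in siCtrl and 102, 124 and 122 in siRCC2, again without overlap, and fell from 10.3 ± 0.993 to 6.32 ± 0.13 CPM (-0.71 ± 0.12, adjusted p = 0.00397). WNT10A had 30, 29 and 36 reads in siCtrl and 9, 3 and 12 in siRCC2. These are few reads, but the groups did not overlap, and the fitted log2 fold change was -1.88 ± 0.41 (adjusted p = 0.0101).

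Of the ligands, WNT5A and WNT9A rose. WNT5A, the best known ligand of the branch without beta-catenin (ENSG00000114251, GRCh38 chromosome 3, 55465715 to 55490539, minus strand), had 102, 93 and 102 reads in siCtrl and 123, 187 and 168 in siRCC2, with siRCC2 replicate 1 the lowest of its group yet above all siCtrl libraries. It rose from 5.11 ± 0.129 to 8.63 ± 1.11 CPM (0.76 ± 0.14, adjusted p = 0.00512). WNT9A (GRCh38 chromosome 1, 227918656 to 227947898, minus strand) had 80, 71 and 79 reads in siCtrl and 161, 149 and 152 in siRCC2 and rose from 3.96 ± 0.123 to 8.46 ± 1.11 CPM (1.09 ± 0.15, adjusted p = 0.00121). Of the other ligands, WNT4 (-0.79), WNT5B (-0.23), WNT7A (0.21) and WNT10B (0.42) did not pass the threshold, with adjusted p from 0.168 to 0.685. WNT3A, WNT6 and WNT11 had too few reads to be tested: WNT3A had 2, 0 and 0 in siCtrl and 0, 5 and 0 in siRCC2, WNT6 had 7, 0 and 0 in siCtrl and was at 0 throughout siRCC2, and WNT11 had 8, 5 and 11 in siCtrl and 5, 0 and 4 in siRCC2.

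Levels of different genes were compared per length, as CPM per kilobase of the longest annotated transcript. WNT7B stood at 21.8 ± 0.703 CPM per kilobase in siCtrl and 15.6 ± 0.582 in siRCC2, followed by WNT3 at 3.08 ± 0.296 and 1.88 ± 0.0388. Of the 12 ligands in the group, WNT5B (1.02 ± 0.155), WNT9A (0.996 ± 0.0309), WNT10B (0.909 ± 0.062) and WNT5A (0.827 ± 0.0209) came next in siCtrl. WNT5B, WNT9A and WNT10B differed by less than the SD of WNT5B. WNT2B, a ligand outside the group, stood above these at 1.26 ± 0.0622 in siCtrl and was at 0.486 ± 0.223 in siRCC2. WNT2B is not part of the ligand sum or shares below. In siRCC2, WNT9A reached 2.13 ± 0.28 CPM per kilobase, above WNT3 in each library but within its SD of the mean level of WNT3. The 12 ligands summed to 29.9 ± 0.704 CPM per kilobase in siCtrl and 23.7 ± 0.99 in siRCC2. WNT7B made up 72.7% ± 1.57 of that sum in siCtrl and 65.9% ± 0.52 in siRCC2, WNT9A 3.33% ± 0.117 and 8.96% ± 0.792, and WNT5A 2.77% ± 0.105 and 5.92% ± 0.988 (SD, n = 3). The groups did not overlap in any of these 3 shares.

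Of the genes that release ligands, the acyltransferase gene PORCN fell and the carrier gene WLS did not pass the threshold. PORCN, which attaches the lipid that ligands need (ENSG00000102312, GRCh38 chromosome X, 48508962 to 48520814, plus strand), had 375, 362 and 356 reads in siCtrl and 139, 149 and 171 in siRCC2. It fell from 18.8 ± 0.611 to 8.35 ± 0.646 CPM (-1.17 ± 0.11 on the log2 scale, adjusted p = 0.000312), with no overlap. WLS had 1129, 1081 and 955 reads in siCtrl and 722, 1036 and 971 in siRCC2, and the groups overlapped (-0.14 ± 0.11, adjusted p = 0.328).

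**Figure D2:**
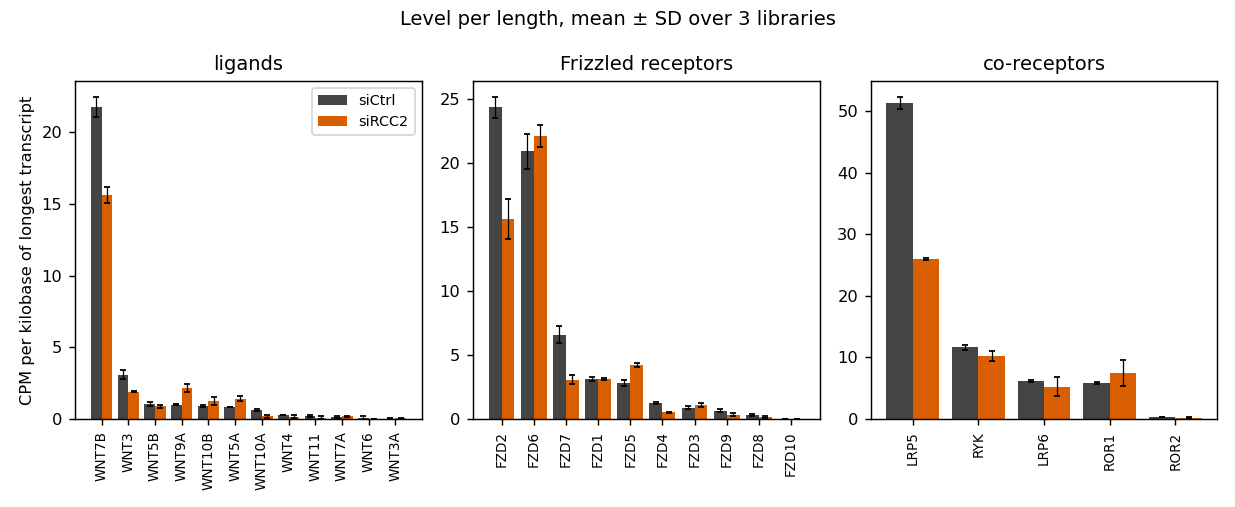
Level per length (y axis, CPM per kilobase of the longest transcript) of the ligands, Frizzled receptors and co-receptors in siCtrl and siRCC2; bars are means over 3 libraries and lines the SD. WNT7B, FZD2, FZD6 and LRP5 are the tallest bars of their panels, and FZD2 and LRP5 are lower in siRCC2 while FZD6 is not.

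Of 9 Frizzled receptors tested, 4 fell (FZD2, FZD4, FZD7 and FZD9), 1 rose (FZD5) and 4 did not pass, where 21.1% of all genes tested fell and 20.7% rose. FZD2 (ENSG00000180340, GRCh38 chromosome 17, 44557459 to 44559570, plus strand), the most abundant per length in siCtrl, had 1022, 991 and 975 reads in siCtrl and 597, 574 and 636 in siRCC2, and the groups lay far apart. Its level fell from 51.5 ± 1.71 to 33 ± 3.27 CPM (-0.64 ± 0.10, adjusted p = 0.00216). FZD7 (GRCh38 chromosome 2, 202034587 to 202038445, plus strand) had 571, 443 and 468 reads in siCtrl and 182, 258 and 210 in siRCC2 and fell from 25.4 ± 2.51 to 11.8 ± 1.32 CPM (-1.11 ± 0.13, adjusted p = 0.000697). Both are receptors of the beta-catenin and the other branches.

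FZD4, the receptor of the ligand norrin as well as of Wnts (ENSG00000174804, GRCh38 chromosome 11, 86945679 to 86955391, minus strand), had 194, 158 and 174 reads in siCtrl and 55, 72 and 79 in siRCC2. It fell from 9.04 ± 0.559 to 3.73 ± 0.408 CPM (-1.27 ± 0.14, adjusted p = 0.000574), and its highest siRCC2 library was below its lowest siCtrl library. FZD4 overlaps the protease gene PRSS23 on the opposite strand, which rose from 405 ± 4.01 to 933 ± 22.7 CPM. The sources do not state whether counting used strand, so reads in the shared stretch could belong to either gene. FZD9 had 36, 25 and 26 reads in siCtrl and 17, 12 and 12 in siRCC2 and a fitted change of -0.99 ± 0.29 (log2, adjusted p = 0.0311). This call was lost with DESeq2 (adjusted p = 0.0973) and without each of siCtrl replicates 1 (0.11), 2 (0.0629) and 3 (0.0644) and siRCC2 replicates 2 (0.118) and 3 (0.0869).

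FZD5 (GRCh38 chromosome 2, 207762586 to 207769563, minus strand) went the other way. It had 399, 320 and 382 reads in siCtrl and 468, 528 and 561 in siRCC2 and rose from 18.9 ± 1.44 to 28.3 ± 1.1 CPM (0.58 ± 0.10, adjusted p = 0.00358), without overlap. FZD6, which is known to dampen the beta-catenin branch, had 1566, 1395 and 1652 reads in siCtrl and 1339, 1612 and 1669 in siRCC2, and the groups overlapped (0.08 ± 0.08, adjusted p = 0.448). FZD1 (0.00 ± 0.09, adjusted p = 0.997) and FZD3 (0.32 ± 0.16, adjusted p = 0.15) did not pass either. FZD8, with 21, 27 and 15 reads in siCtrl and 13, 3 and 7 in siRCC2, had a fitted change of -1.35 ± 0.52 (log2, adjusted p = 0.0766), and it passed without siRCC2 replicate 1 (adjusted p = 0.0177). FZD10 had 0 reads in every library.

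The make-up of the summed Frizzled level differed between groups. Per length, FZD2 made up 40.1% ± 1.86 of the summed Frizzled level in siCtrl and 31.1% ± 2.51 in siRCC2. FZD6 went from 34.4% ± 1.97 to 44.2% ± 1.61, FZD7 from 10.8% ± 0.991 to 6.1% ± 0.871 and FZD5 from 4.63% ± 0.296 to 8.42% ± 0.101 (SD, n = 3). The sum went from 60.8 ± 0.784 to 50.1 ± 1.49 CPM per kilobase. In siCtrl, FZD2 was above FZD6 in each library, and in siRCC2 FZD6 was above FZD2 in each library.

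Among the co-receptors, LRP5 fell and LRP6 did not pass the threshold. LRP5 (ENSG00000162337, GRCh38 chromosome 11, 68312609 to 68449275, plus strand) had 5413, 4950 and 5035 reads in siCtrl and 2221, 2580 and 2575 in siRCC2. These values are tight within each group and lie far apart. Its level went from 265 ± 4.85 to 134 ± 1.05 CPM (-0.98 ± 0.06 on the log2 scale, adjusted p = 5.73e-05). LRP6 had 1224, 1180 and 1175 reads in siCtrl and 584, 1085 and 1255 in siRCC2, so siRCC2 replicate 1 was far below the other two, which after scaling lay on either side of the siCtrl range (-0.23 ± 0.21, adjusted p = 0.399). Without that library the log2 fold change of LRP6 was -0.03. Per length LRP5 stood at 51.4 ± 0.94 CPM per kilobase in siCtrl and LRP6 at 6.15 ± 0.17, and in siRCC2 at 26 ± 0.204 and 5.22 ± 1.55.

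ROR1, ROR2 and RYK gave no calls. ROR1, a tyrosine kinase-like receptor of WNT5A, had 667, 655 and 646 reads in siCtrl and 491, 905 and 1025 in siRCC2. Replicates 2 and 3 of siRCC2 were above all siCtrl libraries and replicate 1 was below them (0.36 ± 0.20, adjusted p = 0.201). Without siRCC2 replicate 1 the log2 fold change of ROR1 was 0.55 (adjusted p = 0.00299). RYK (-0.19 ± 0.09, adjusted p = 0.123) and ROR2 (-0.89 ± 0.49, adjusted p = 0.185) did not overlap between groups but did not pass, and RYK passed without siRCC2 replicate 3 (0.0452).

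**Figure D3:**
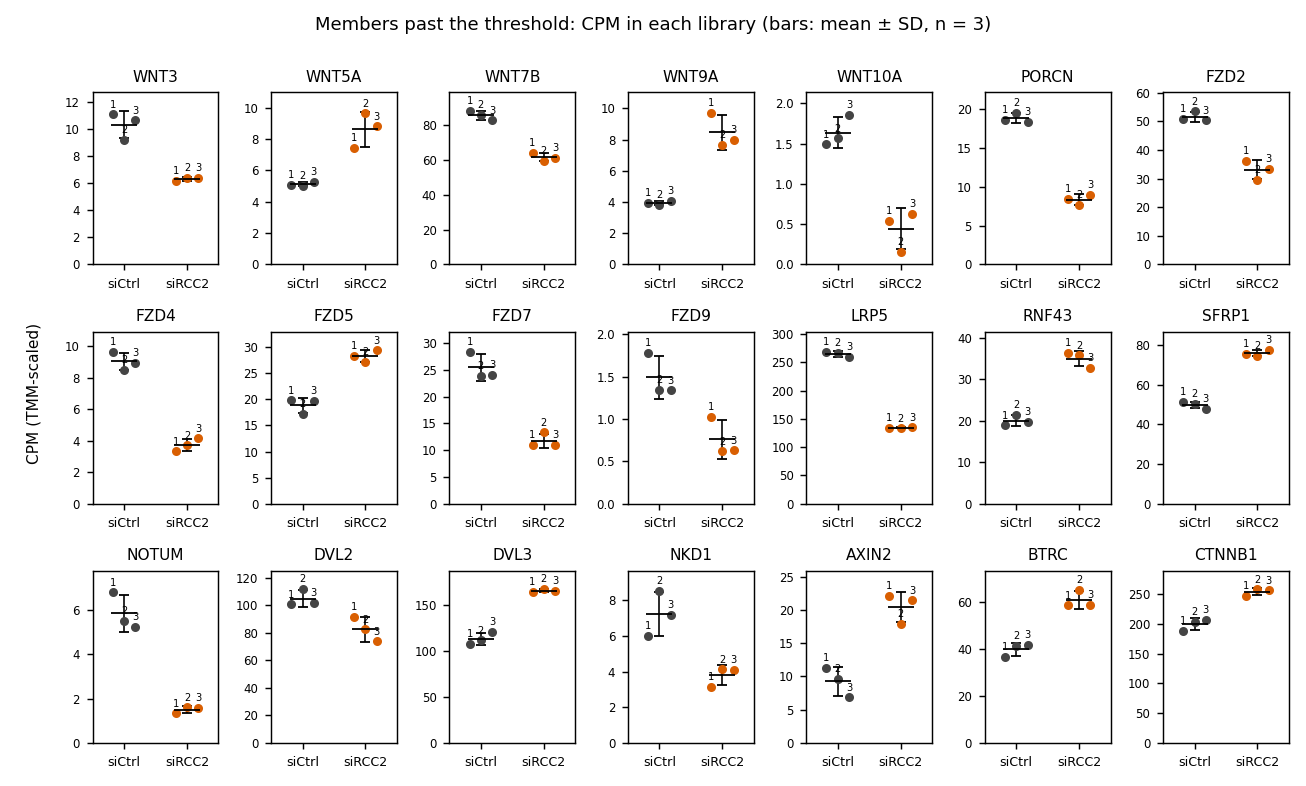
CPM in each library (y axes from 0, replicate number above each point) for the 21 members past the threshold, siCtrl in grey and siRCC2 in orange; bars are the mean ± SD of 3 libraries. The groups do not overlap in any of the 21 panels, and the spread of LRP5 is small against the distance between its groups while that of FZD9 and DVL2 is not.

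RNF43 and ZNRF3 are ubiquitin ligases that remove Frizzled receptors from the surface, and LGR4 and LGR5, receptors of R-spondins, hold them back. RNF43 (ENSG00000108375, GRCh38 chromosome 17, 58352500 to 58417595, minus strand) had 380, 398 and 383 reads in siCtrl and 600, 694 and 626 in siRCC2, all siRCC2 libraries above all siCtrl libraries. It rose from 20 ± 1.32 to 35 ± 1.86 CPM (0.80 ± 0.10, adjusted p = 0.000825). RNF43 overlaps SUPT4H1 on the same strand, which had 68 ± 3.43 CPM in siCtrl and 75.6 ± 8.48 CPM in siRCC2 and did not pass (adjusted p = 0.258). Of the 50-base stretches of the longest RNF43 transcript 76.3% also occur in other genes, most of all in AC004687.2, a gene model not analysed here. How reads were shared between RNF43 and such genes bears on the RNF43 level. ZNRF3 (0.16 ± 0.09, adjusted p = 0.215) and LGR4 (-0.09 ± 0.15, adjusted p = 0.647) did not pass. LGR4 had 1015 reads in siRCC2 replicate 1 against 1514 and 1768 in replicates 2 and 3. LGR5, a stem cell marker of the gut, had 0 reads in every library.

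Of the secreted inhibitors NOTUM fell and SFRP1 rose. NOTUM, an esterase that removes the lipid from ligands (ENSG00000185269, GRCh38 chromosome 17, 81952507 to 81961840, minus strand), had 137, 102 and 102 reads in siCtrl and 22, 31 and 30 in siRCC2. It fell the most of all members tested, from 5.85 ± 0.83 to 1.5 ± 0.148 CPM (-1.96 ± 0.18 on the log2 scale, adjusted p = 0.000305). SFRP1, a decoy that binds ligands, had 1031, 930 and 928 reads in siCtrl and 1247, 1444 and 1476 in siRCC2 and rose from 49.7 ± 1.71 to 75.7 ± 1.52 CPM (0.61 ± 0.07, adjusted p = 0.00071). DKK1, which blocks LRP5 and LRP6, was the most abundant member per length at 76.1 ± 3.69 CPM per kilobase in siCtrl and 71.6 ± 2.57 in siRCC2. It had 2883, 2517 and 2521 reads in siCtrl and 2067, 2446 and 2545 in siRCC2, and the groups overlapped (-0.09 ± 0.07, adjusted p = 0.343). DKK3 was lower without overlap but did not pass (-0.24 ± 0.09, adjusted p = 0.0694). It passed with total counts alone as the scaling (0.0254) and without siRCC2 replicate 1 (0.046).

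Of the Dishevelled genes, which carry the signal from receptor to Axin, DVL3 rose and DVL2 fell. DVL3 (GRCh38 chromosome 3, 184155388 to 184173610, plus strand) had 2179, 2070 and 2340 reads in siCtrl and 2712, 3249 and 3157 in siRCC2 and rose from 113 ± 6.43 to 166 ± 1.72 CPM (0.55 ± 0.07, adjusted p = 0.000914). DVL2 (GRCh38 chromosome 17, 7225341 to 7234545, minus strand) had 2030, 2076 and 1977 reads in siCtrl and 1518, 1600 and 1407 in siRCC2 and went from 105 ± 6.13 to 82.7 ± 9.01 CPM (-0.34 ± 0.10, adjusted p = 0.0279). The call for DVL2 was lost without each of siCtrl replicates 1 (0.0586), 2 (0.098) and 3 (0.064) and siRCC2 replicates 2 (0.132) and 3 (0.0572). DVL1 had 2980, 1516 and 1579 reads in siCtrl and 2958, 2970 and 2647 in siRCC2, so siCtrl replicate 1 lay among the siRCC2 libraries and the groups overlapped (0.60 ± 0.24, adjusted p = 0.0862). Without siCtrl replicate 1 its log2 fold change was 0.94 (adjusted p = 0.0042). DVL1 also passed with DESeq2 (0.0367). Of the Naked proteins, which bind and restrain Dishevelled, NKD1 (ENSG00000140807, GRCh38 chromosome 16, 50548330 to 50640739, plus strand) had 121, 158 and 139 reads in siCtrl and 52, 80 and 78 in siRCC2 and fell from 7.23 ± 1.26 to 3.79 ± 0.555 CPM (-0.93 ± 0.19, adjusted p = 0.00733). NKD2 had a fitted change of -0.01 ± 0.08 (log2, adjusted p = 0.917).

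In the destruction complex, AXIN2 and BTRC rose and 4 members did not pass. AXIN2, both a scaffold of the complex and a widely used target gene of beta-catenin (ENSG00000168646, GRCh38 chromosome 17, 65528563 to 65561647, minus strand), had 227, 178 and 133 reads in siCtrl and 366, 347 and 409 in siRCC2. The siCtrl values spread widely but stayed below all siRCC2 values. Its level increased from 9.24 ± 2.23 to 20.5 ± 2.28 CPM (1.15 ± 0.19 on the log2 scale, adjusted p = 0.00341). Of the 50-base stretches of AXIN2, 30.2% also occur in other genes, most of all in the overlapping gene model AC004805.1. That model had at most 2 reads in a library, and the pair summed gave 1.14 ± 0.20. BTRC, which recognises marked beta-catenin for the ubiquitin ligase (GRCh38 chromosome 10, 101354033 to 101557321, plus strand), had 739, 770 and 809 reads in siCtrl and 970, 1269 and 1124 in siRCC2 and rose from 40 ± 2.84 to 61 ± 3.81 CPM (0.61 ± 0.09, adjusted p = 0.00198).

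The core of the complex showed no call. AXIN1 had 1286, 1642 and 1197 reads in siCtrl and 1228, 1813 and 1264 in siRCC2, with replicate 2 the highest of either group (0.13 ± 0.18, adjusted p = 0.595). GSK3B had 1349, 1258 and 1396 reads in siCtrl and 1065, 1512 and 1648 in siRCC2 (0.15 ± 0.11, adjusted p = 0.342), and without siRCC2 replicate 1 it passed at 0.0408. GSK3A gave 0.12 ± 0.09 (adjusted p = 0.308). APC, the tumour suppressor of the complex, had 112, 377 and 198 reads in siCtrl and 37, 192 and 458 in siRCC2. Its values ranged widely in both groups, so the standard error was large (0.01 ± 0.77, adjusted p = 0.991) and a change in APC was not detectable with these libraries.

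**Figure D4:**
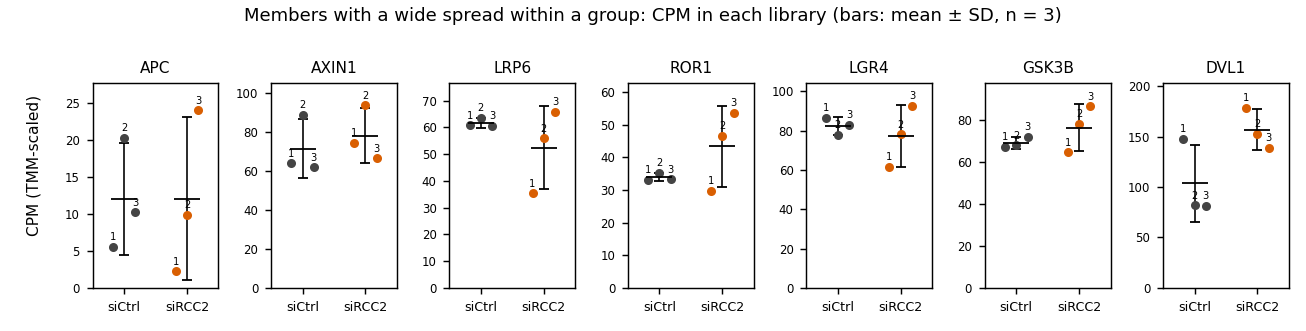
CPM in each library (y axes from 0, replicate number above each point) for 7 members without a call whose spread within a group is wide; bars are the mean ± SD of 3 libraries. APC ranges widely in both groups, LRP6, ROR1, LGR4 and GSK3B have siRCC2 replicate 1 lowest, and DVL1 has siCtrl replicate 1 among the siRCC2 values.

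CTNNB1, which encodes beta-catenin (ENSG00000168036, GRCh38 chromosome 3, 41194837 to 41260096, plus strand), rose by a small amount. It had 3786, 3786 and 4007 reads in siCtrl and 4090, 5010 and 4892 in siRCC2, and every siRCC2 library was above every siCtrl library after scaling. The level went from 199 ± 10.1 to 254 ± 5.84 CPM (0.35 ± 0.06 on the log2 scale, adjusted p = 0.00491). The gene overlaps ULK4 on the opposite strand, which had between 53 and 94 reads per library. These are RNA levels, and the pathway controls beta-catenin mainly as a protein, which was not measured in the files used here. Of its DNA-binding partners, TCF7L2 (0.27 ± 0.12, adjusted p = 0.11), TCF7L1 (0.55 ± 0.22, adjusted p = 0.0854) and TCF7 (-0.37 ± 0.24, adjusted p = 0.247) did not pass, and TCF7L1 passed without siCtrl replicate 2 (0.0498). TCF7 overlaps SKP1 on the opposite strand, which rose from 106 ± 2.17 to 140 ± 15.5 CPM. LEF1 had at most 12 reads in a library and was not tested. Per length TCF7L2 made up 55.8% ± 2.93 of the 4 factors in siCtrl and 56% ± 4.57 in siRCC2.

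The inhibitors that beta-catenin is known to induce did not move together: AXIN2 and RNF43 rose, NKD1 and NOTUM fell, and DKK1 and ZNRF3 did not pass. Promoter sequence for these genes was looked up in the RefSeq table on GRCh38.p14, where 36 of the 53 members have at least 1 window. The 250 bases before each start were searched on both strands for the letters CTTTGA and CTTTGT, which form the core of the site that TCF and LEF factors bind, and which do not overlap each other. Of all 35116 windows 22.8% hold at least 1 of these, and of the 45 windows of members 8 do, from 7 members. The longer CTTTGAT, searched in the same way, was found in 0 of the 45 windows of members and in 2.26% of all windows. Windows of DKK1, RNF43 and TCF7, all known targets, are shown because they hold such a match, and capitals mark it. Each is written 5′ to 3′ on the strand of its gene.
DKK1, chr10:52314031-52314280, plus strand: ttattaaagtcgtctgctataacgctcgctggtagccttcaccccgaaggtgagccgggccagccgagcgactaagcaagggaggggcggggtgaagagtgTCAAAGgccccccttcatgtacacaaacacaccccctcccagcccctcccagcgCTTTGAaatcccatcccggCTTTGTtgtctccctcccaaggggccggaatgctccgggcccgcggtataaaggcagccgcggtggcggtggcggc
RNF43, chr17:58417535-58417784, minus strand: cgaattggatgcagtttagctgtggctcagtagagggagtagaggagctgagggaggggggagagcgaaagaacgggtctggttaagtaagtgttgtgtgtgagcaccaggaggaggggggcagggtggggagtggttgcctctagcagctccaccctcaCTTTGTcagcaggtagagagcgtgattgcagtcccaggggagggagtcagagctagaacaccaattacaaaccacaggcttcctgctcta
RNF43, inner start, chr17:58402722-58402971, minus strand: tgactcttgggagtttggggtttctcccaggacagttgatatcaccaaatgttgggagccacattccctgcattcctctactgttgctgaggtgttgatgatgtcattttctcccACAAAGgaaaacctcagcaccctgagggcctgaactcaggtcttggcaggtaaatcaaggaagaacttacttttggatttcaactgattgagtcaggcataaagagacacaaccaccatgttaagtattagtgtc
TCF7, inner start, chr5:134123368-134123617, plus strand: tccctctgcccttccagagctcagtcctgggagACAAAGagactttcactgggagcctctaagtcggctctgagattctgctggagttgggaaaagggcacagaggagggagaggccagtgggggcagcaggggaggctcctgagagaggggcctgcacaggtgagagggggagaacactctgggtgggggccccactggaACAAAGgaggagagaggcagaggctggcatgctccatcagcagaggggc
The DKK1 window holds 3 matches, beginning 149, 95 and 76 bases before the start, of which that at 149 is read on the other strand. The outer RNF43 window holds 1 match at 90 bases and the inner window 1 on the other strand at 135 bases. The inner TCF7 window holds 2 matches on the other strand, at 217 and 49 bases. The outer TCF7 window, which is not shown, holds 0 matches. Of the 7 members with a match, RNF43 rose, PORCN fell, and DKK1, FZD1, ROR2, TCF7 and TCF7L2 had no call. A match of 6 letters is a description and not a binding site. AXIN2, NKD1, NOTUM and ZNRF3 have no window in that table.

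Beyond the members, 175 other Wnt pathway genes in 6 lists were examined in the same fit. Of 141 tested, 39 rose (27.7%) and 37 fell (26.2%), with a median of -0.05. Over all genes tested the shares were 20.7% and 21.1%, and the lists below are to be read against these. Surface partners of the receptors had 8 of 12 lower (66.7%, against 21.1% of all genes) and 0 higher (against 20.7%), with a median of -0.79. Of the 8, TMEM131L passed in 5 of the 14 alternatives given below and LRP4 in 13, and the rest passed in all of them. KREMEN1, which takes LRP6 off the surface together with DKK1, had 783, 747 and 766 reads in siCtrl and 122, 168 and 138 in siRCC2 and fell from 39.5 ± 0.703 to 7.76 ± 0.783 CPM (-2.35 ± 0.11, adjusted p = 3.43e-05). ADGRA2, a co-receptor for WNT7A and WNT7B, had 476, 447 and 405 reads in siCtrl and 93, 112 and 111 in siRCC2 and fell from 22.9 ± 1.74 to 5.74 ± 0.102 CPM (-1.99 ± 0.11). PTK7, a kinase-like receptor of planar polarity, fell from 101 ± 4.56 to 52 ± 1.79 CPM (-0.95 ± 0.07). Of 25 other ligands, R-spondins and secreted inhibitors, 7 were tested, of which SFRP4 rose (1.81 ± 0.27) and WNT2B (-1.37 ± 0.33) and TRABD2B (-1.02 ± 0.25) fell. The call for TRABD2B, a protease that cuts ligands, was lost with DESeq2 (0.0829) and without siCtrl replicate 1 (0.0576), siCtrl replicate 3 (0.0588) or siRCC2 replicate 2 (0.0666).

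**Figure D5:**
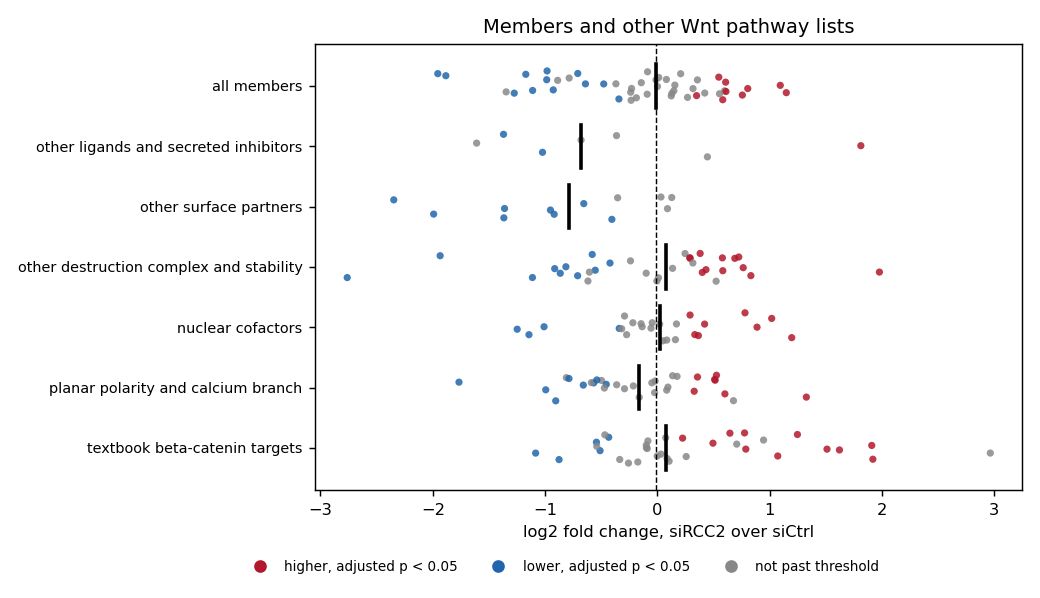
Log2 fold change of siRCC2 over siCtrl (x axis) for the 47 members tested and the 141 tested genes of 6 other Wnt pathway lists (rows); each point is a gene, black bars are list medians and the dashed line is the median of all 16536 genes. The median of the surface partners lies at -0.79 and those of the destruction complex genes, cofactors and targets near 0.

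Genes around the destruction complex changed in both directions, with 12 higher (37.5%, against 20.7% of all genes) and 10 lower (31.3%, against 21.1%) of 32 tested and a median of 0.07. FBXW11, the close relative of BTRC, had 2400, 2442 and 2597 reads in siCtrl and 561, 571 and 710 in siRCC2 and fell from 128 ± 7.94 to 33.5 ± 3.92 CPM (-1.93 ± 0.11, adjusted p = 5.73e-05). CSNK1G2, a kinase of LRP6, rose from 133 ± 3.13 to 236 ± 14.8 CPM (0.83 ± 0.07), and CCDC88C, a Dishevelled-binding protein, fell from 65.8 ± 1.7 to 34.9 ± 1.96 CPM (-0.91 ± 0.08). Of 25 nuclear cofactors 8 rose (32%, against 20.7%) and 4 fell (16%, against 21.1%), with a median of 0.02. The beta-catenin adaptor BCL9 rose from 83.2 ± 2.71 to 154 ± 3.51 CPM (0.89 ± 0.06), the chromatin remodeller SMARCA4 from 38.5 ± 2.65 to 88.2 ± 1.39 CPM (1.20 ± 0.08) and the co-repressor TLE3 from 34 ± 0.254 to 58.4 ± 4.35 CPM (0.78 ± 0.09). Of 31 genes of the planar polarity and calcium branches 7 rose (22.6%) and 8 fell (25.8%), shares close to the 20.7% and 21.1% of all genes, with a median of -0.16. Among those that fell were the polarity cadherins CELSR2 (-1.77 ± 0.10) and CELSR1 (-0.99 ± 0.08) and the phospholipase PLCB3 (-0.79 ± 0.07).

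Textbook target genes of beta-catenin had 11 higher (32.4%, against 20.7% of all genes) and 5 lower (14.7%, against 21.1%) of 34 tested, with a median of 0.08. These differences in share were not tested. Of the 11 higher, PPARD passed in 3 of the 14 alternatives given below, YAP1 in 11 of 14 and FST in 10 of 13. Of the 5 lower, MET passed in 13 of 14. The growth gene CCND1 fell from 524 ± 30.1 to 286 ± 1.68 CPM (-0.88 ± 0.06, adjusted p = 0.000123), while the transcription factor genes JUN (1.25 ± 0.07) and ETS2 (1.07 ± 0.07) rose. MYC had 61, 62 and 72 reads in siCtrl and 133, 59 and 1288 in siRCC2, so siRCC2 replicate 3 was far above the other libraries. Its log2 fold change of 2.96 ± 1.07 did not pass (adjusted p = 0.0608). MYC passed without siRCC2 replicate 1 (0.0374), without siRCC2 replicate 2 (0.0173) and with DESeq2 (0.0332), and without siRCC2 replicate 3 its log2 fold change was 0.71.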

How the data were processed

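RNA sequencing of DU145 cells gave 3 siCtrl and 3 siRCC2 libraries, grouped by their titles. The authors deposited 1 table per library of whole-number gene counts. Bowtie2, RSEM and DESeq2 with GRCh38 are listed, per the submitters' processing notes, without versions or roles. RSEM estimates may have been rounded, and it shares reads among similar genes. The test on counts was that of edgeR 4.0.16 under R 4.3.3 (filterByExpr, TMM, quasi-likelihood F-test, Benjamini-Hochberg over 16536 genes, threshold 0.05). Standard errors are the fold change (log2) over the root of F. The test was checked on simulated counts. Genes below 1 CPM rest on few reads. Library pairs within a group differed by 9.56 to 31.9 times sampling noise, as chi-square over its degrees of freedom, so each counted once. Lengths and shared sequence came from GENCODE release 29, which holds 50111 of the gene identifiers, 94.8% at identical coordinates.

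Members and lists were chosen with earlier results of these data known. Each member is accounted for. Some marker genes are not reported here. Reads per library are given for members past the threshold and for CTNNB1, GSK3B, AXIN1, APC, WLS, LRP6 and PORCN, and up to 3 genes of the smallest p, MYC and CCND1 are named from the other lists. ROR1, FZD6, FZD8, DKK1, DVL1, LGR4 and the untested ligands were given by library after their values were seen. Alternatives were 3 scalings, DESeq2 1.42.0, limma-voom (limma 3.58.1), 2 filters, a replicate block, each library left out and exon-union lengths. Sums of AXIN2 and of GSK3A with overlapping gene models were added after the data were seen.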

Additional observations from a re-analysis of the deposited data

How the results depend on the processing

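Of the 21 members past the threshold, 19 passed in each of 14 alternatives and the sign of none changed in any of them. The exceptions, FZD9 and DVL2, are given above. Of the 26 other members, 7 passed in at least 1 alternative. Some calls among the other pathway genes were lost in at least 1 alternative, those of CSNK1G3, CACYBP and NLK among them. Leaving out each library in turn gave 9 to 11 members higher and 10 to 14 lower, 29 to 43 and 30 to 41 of the other pathway genes, and 2520 to 3666 and 2511 to 3899 of all genes. With the replicate number as a block, 10 members were higher and 12 lower, the added one being DVL1 (adjusted p = 0.0195), and 3075 and 3220 of all genes. Deviations from the group means correlated at 0.059, -0.042 and 0.099 between same-numbered libraries, and libraries did not all correlate best with their own number. With 3 libraries per group, these values cannot show whether the numbers pair the samples. With exon-union lengths the siRCC2 share of WNT7B among ligands was 64.2% and that of FZD6 among Frizzled genes 42.4%. By these lengths WNT9A stood at 2.13 CPM per kilobase in siRCC2 and WNT3 at 1.46. In siCtrl WNT5B (0.545) was then below WNT9A (0.996), WNT10B (0.786) and WNT5A (0.691), so the order of these ligands depends on the length used.

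Among members, signs changed only in those without a call. FZD1 went from 0.00 to -0.0217 with upper-quartile scaling, -0.0682 with total counts alone and -0.0323 when every gene with a read was kept. APC went from 0.01 to -0.0205, -0.0394 and -0.0193 under these 3, to -0.30 with the replicate block, to -0.0035 with DESeq2 and to -0.30 with limma-voom. NKD2 went from -0.01 to 0.0023 with DESeq2 size factors. Leaving out each library gave -0.0068 to 0.62 for WNT7A, -0.0331 to 0.0342 for FZD1, -0.24 to 0.0356 for LGR4, -0.0545 to 0.0381 for NKD2, -0.0039 to 0.31 for AXIN1 and -0.96 to 0.62 for APC. The cause was not tested. The pair of GSK3A with AC006486.1 gave 0.12 (adjusted p = 0.318). At this depth WNT3A, WNT6, WNT11, FZD10, LGR5 and LEF1 had too few reads for a test.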

Other observations

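The 2 genes for the F-box proteins that recognise phosphorylated beta-catenin moved in opposite directions. BTRC rose from 40 ± 2.84 to 61 ± 3.81 CPM and FBXW11 fell from 128 ± 7.94 to 33.5 ± 3.92 CPM. Their CPM summed to 156, 173 and 176 in siCtrl replicates 1 to 3 and to 92.6, 94.8 and 96.2 in siRCC2 replicates 1 to 3, so the groups did not overlap in the sum either. The sum is of CPM without regard to transcript length, so it is not a combined transcript level. This pair was singled out after its values were seen.

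APC2, the relative of APC, had 84, 115 and 123 reads in siCtrl and 11, 22 and 12 in siRCC2 and fell from 5.57 ± 1.21 to 0.809 ± 0.281 CPM (-2.76 ± 0.29 on the log2 scale, adjusted p = 0.000507), and it did so in each of the 14 alternatives. FRAT2, which binds GSK3 and keeps it from beta-catenin, had 52, 57 and 89 reads in siCtrl and 248, 249 and 239 in siRCC2 and rose from 3.41 ± 1.04 to 13.4 ± 1.34 CPM (1.98 ± 0.22, adjusted p = 0.000625). LGR6, an R-spondin receptor, fell from 2.91 ± 0.262 to 1.12 ± 0.287 CPM (-1.37 ± 0.23), and KREMEN2 fell from 2.77 ± 0.444 to 1.07 ± 0.0882 CPM (-1.36 ± 0.21). These 4 genes were chosen after their values were seen.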
